A study of Homo sapiens with 14 samples.

Results

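The 42 genes described here encode the protein machinery of the DNA replication fork and the factors that load histones behind it, and they were taken by name from 26760 genes listed for A549 cells and 26732 listed for H1792 cells. All 42 were found in both tables, and all 42 had enough counts to be tested in each line. RNA was sequenced from A549 and H1792, each a single established human lung adenocarcinoma line, 48 h after addition of 0.1 µM AMG900, which inhibits all aurora kinases, or of DMSO, its solvent. A549 cells were grown in DMEM medium with 4 DMSO and 4 AMG900 libraries, and H1792 cells in RPMI 1640 medium with 3 DMSO and 3 AMG900 libraries. The protocol gives 3 replicates per treatment, the labels list 4 libraries per treatment for A549, and all were used. Whether some of the A549 libraries share a culture is not stated. The study asked what aurora kinase inhibition does to gene expression in lung adenocarcinoma cells. The questions taken here are how the fork genes changed with AMG900 in each line and whether the lines differed.

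At a replication fork, a helicase that holds CDC45 and the GINS complex among its parts unwinds DNA. Polymerase alpha and its primase start each new strand, and polymerases epsilon and delta extend the leading and the lagging strand. The ring-shaped clamp PCNA, opened and closed by the replication factor C (RFC) loaders, holds the polymerases on the template, replication protein A (RPA) coats single strands, and nucleases and a ligase finish the Okazaki fragments. The chaperones CAF-1 and ASF1 deposit histones on the new DNA. In cycling cells many of these genes are transcribed around the entry into S phase under E2F factors, and their transcripts are scarce in resting cells.

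The promoters of 35 of the 42 genes were matched by symbol in a RefSeq table of the GRCh38.p14 build, in windows of 300 bases that run from 250 bases before the start of the gene to 50 bases after it. Letters of an E2F site (TTTCCCGC, TTTCGCGC, TTTGCCGC or TTTGGCGC on either strand) were found in 15 of the 35, which is 42.9%, against 3.99% of all 27305 genes with such a window and 6.58% of the 9859 of them that were tested in A549. The CCAAT box (CCAAT on either strand) was found in 21 of the 35, or 60%, against 39.7% of all genes and 42.8% of those tested in A549. The letters TTTGAA or TTCGAA of the cell cycle homology region, known as CHR, were found in 2 of the 35 (POLE3 and ASF1B), or 5.71%. The shares were 19.5% of all genes and 15% of those tested in A549. The 250 bases before the start are shown for 5 genes that span the range of change: DTL, GINS2 and ASF1B, which were left at 7.39% to 10% of their DMSO level in A549, PCNA, which fell least of the called genes in that line, and POLD4, which rose. Capitals mark matches to any of these motifs.
DTL, chr1:212035498-212035747, plus strand: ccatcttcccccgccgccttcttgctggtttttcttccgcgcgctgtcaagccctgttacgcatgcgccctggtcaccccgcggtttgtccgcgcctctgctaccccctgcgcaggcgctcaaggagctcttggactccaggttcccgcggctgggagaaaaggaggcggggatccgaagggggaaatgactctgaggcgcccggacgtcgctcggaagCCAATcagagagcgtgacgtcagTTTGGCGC
GINS2, chr16:85688955-85689204, minus strand: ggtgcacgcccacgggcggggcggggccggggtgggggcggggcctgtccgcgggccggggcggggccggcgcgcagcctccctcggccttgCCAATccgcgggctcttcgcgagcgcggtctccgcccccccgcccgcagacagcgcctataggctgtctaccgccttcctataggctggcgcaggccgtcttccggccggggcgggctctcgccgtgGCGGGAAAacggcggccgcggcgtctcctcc
ASF1B, chr19:14136590-14136839, minus strand: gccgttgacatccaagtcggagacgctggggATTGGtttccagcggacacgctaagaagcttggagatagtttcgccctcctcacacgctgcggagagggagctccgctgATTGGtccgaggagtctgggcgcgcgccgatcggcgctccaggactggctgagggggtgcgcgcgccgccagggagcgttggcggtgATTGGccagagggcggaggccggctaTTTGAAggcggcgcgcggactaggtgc
PCNA, chr20:5126623-5126872, minus strand: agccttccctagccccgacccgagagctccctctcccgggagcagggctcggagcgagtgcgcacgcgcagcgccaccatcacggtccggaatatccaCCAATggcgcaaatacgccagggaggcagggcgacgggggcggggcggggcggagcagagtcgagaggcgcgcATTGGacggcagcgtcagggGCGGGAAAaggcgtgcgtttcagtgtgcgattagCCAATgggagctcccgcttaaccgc
POLD4, chr11:67353597-67353846, minus strand: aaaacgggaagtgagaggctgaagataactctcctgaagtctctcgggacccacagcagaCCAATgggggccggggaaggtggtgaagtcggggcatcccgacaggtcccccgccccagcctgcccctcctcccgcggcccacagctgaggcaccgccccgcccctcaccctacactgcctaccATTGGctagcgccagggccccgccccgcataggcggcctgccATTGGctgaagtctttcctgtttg
PCNA carries an E2F match and 3 CCAAT matches, as GINS2 and DTL each carry an E2F match and 1 CCAAT match, while POLD4 carries 3 CCAAT matches and no E2F match. Over A549 the median change on the log2 scale was -1.81 for the 15 genes with an E2F match and -1.88 for the 20 without one. A match is a description of the letters only.

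Total counts ran from 4254644 to 18962883 per library in A549 and from 42760874 to 79902934 in H1792, where 28 entries bearing calendar dates in place of symbols had been set aside. The fork genes together took 0.231% to 0.246% of the counts in the A549 DMSO libraries and 0.0992% to 0.103% in the A549 AMG900 libraries. In H1792 they took 0.249% to 0.258% with DMSO and 0.23% to 0.233% with AMG900. Levels are given in CPM, the counts of a gene scaled to a common library size over the tested genes with TMM factors, with the SD between libraries. Keratins KRT7, KRT8 and KRT18, markers of epithelial lines, were above 246 CPM in every library. KRT19 was at 20.3 to 86.2 CPM in A549 and 5.79 to 10.2 CPM in H1792. EPCAM was at 0.0910 to 0.539 CPM in A549 and 3.26 to 3.83 CPM in H1792. CDH1 was at 15.7 to 44.8 CPM in A549 and 0.570 to 1.04 CPM in H1792. Of these 6, the 5 tested in A549 all rose with AMG900, by 0.31 to 1.58 on the log2 scale, against 17.2% of tested genes. In H1792 only KRT19 of the 6 rose (log2 fold change 0.54), against 16.2%. Their sum was 7973 to 10385 CPM with DMSO and 10747 to 12291 CPM with AMG900 in A549. In H1792 it was 1540 to 1926 CPM and 1934 to 1974 CPM. Of 6 markers of blood and vessel cells, CD3E was at 0 in every A549 library and PTPRC was at or below 0.0945 CPM in every library of both lines. CD68 was at 58.3 to 192 CPM and was higher with AMG900 in both lines, and it carried most of the sum of the 6, which was 58.5 to 85.6 CPM with DMSO and 149 to 171 CPM with AMG900 in A549, and 101 to 129 CPM and 175 to 200 CPM in H1792. Without CD68 the other 5 summed to 0.224 to 5.92 CPM with DMSO and 0.323 to 1.32 CPM with AMG900 in A549, and to 3.93 to 16.2 CPM and 8.10 to 9.18 CPM in H1792, and these ranges overlapped in each line. Gene by gene, 3 of the 4 tested in H1792 rose, against 16.2% of tested genes. On the log2 scale these were CD68 (0.78), PECAM1 (0.76) and CDH5 (2.29), while VWF (-2.72) did not pass. CDH5 was near the floor, with a mean of 0.0818 CPM in the H1792 DMSO libraries when scaled over both lines. The part of these markers in the changes of the fork genes was not tested. DMSO replicate 1 of A549, the shallowest library, stood apart from the other 3 on the second principal component (-50.6 against 18.7 to 20.7), and results that turn on it are given with and without it.

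In A549, 39 of the 42 fork genes fell with AMG900 at a false discovery rate (FDR) of 0.01 in the edgeR quasi-likelihood test, where 17.8% of 13174 tested genes fell. POLD4, the small accessory subunit of polymerase delta, was the 1 gene that rose, against 17.2% of all genes, and PRIM2 and POLE4 did not pass. Without DMSO replicate 1, which stood apart, those passed as well and 41 fell, against 22.1% of tested genes. At least a 2-fold decrease was seen in 33 of the 42, against 5.84% of all tested genes. These counts include POLE2, DSCC1, DNA2 and RFC3, which had libraries under 10 counts. With at least 10 counts required in every library, those 4 dropped out and 35 of 38 fell, against 18.6% of tested genes. The median log2 fold change of the 42 was -1.92, against -0.01 over all tested genes. Every AMG900 library lay below every DMSO library for 41 of them, where this held for 22.0% of tested genes, and above for POLD4, where this held for 21.9%. In 19 genes less than 25% of the DMSO level was left, and in 9 less than 11%. In bulk RNA, fewer cells that are copying their DNA and less RNA of these genes per cell cannot be told apart.

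In H1792, 16 of the 42 fell, against 18.8% of 15017 tested genes, POLD4 and CHTF18 rose, against 16.2%, and 24 did not pass. With single libraries left out, the number that fell ran from 11 without AMG900 replicate 2, against 13.0% of tested genes, to 22 without DMSO replicate 1, against 24.1%. Leaving out DMSO replicate 1 added POLD3, POLE3, RFC1, RPA1, RPA3 and TOPBP1 as decreases and POLD2 as an increase. A decrease of at least 2-fold was seen in 3, namely DNA2, RFC3 and WDHD1, against 5.20% of tested genes. The median log2 fold change was -0.22, against 0.01 over all tested genes. Every AMG900 library lay below every DMSO library for 23 of the 42, against 29.6% of tested genes, and above for 5, against 30.1%, while the groups overlapped for 14. Of the 42 genes, 15 fell in both lines, 23 fell in A549 and did not pass in H1792, and CHTF18 fell in A549 and rose in H1792. POLD4 rose in both, POLE4 fell in H1792 and did not pass in A549, and PRIM2 passed in neither. The share of all tested genes with each pair of calls was not computed, so these joint counts are a description only.

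**Figure D1:**
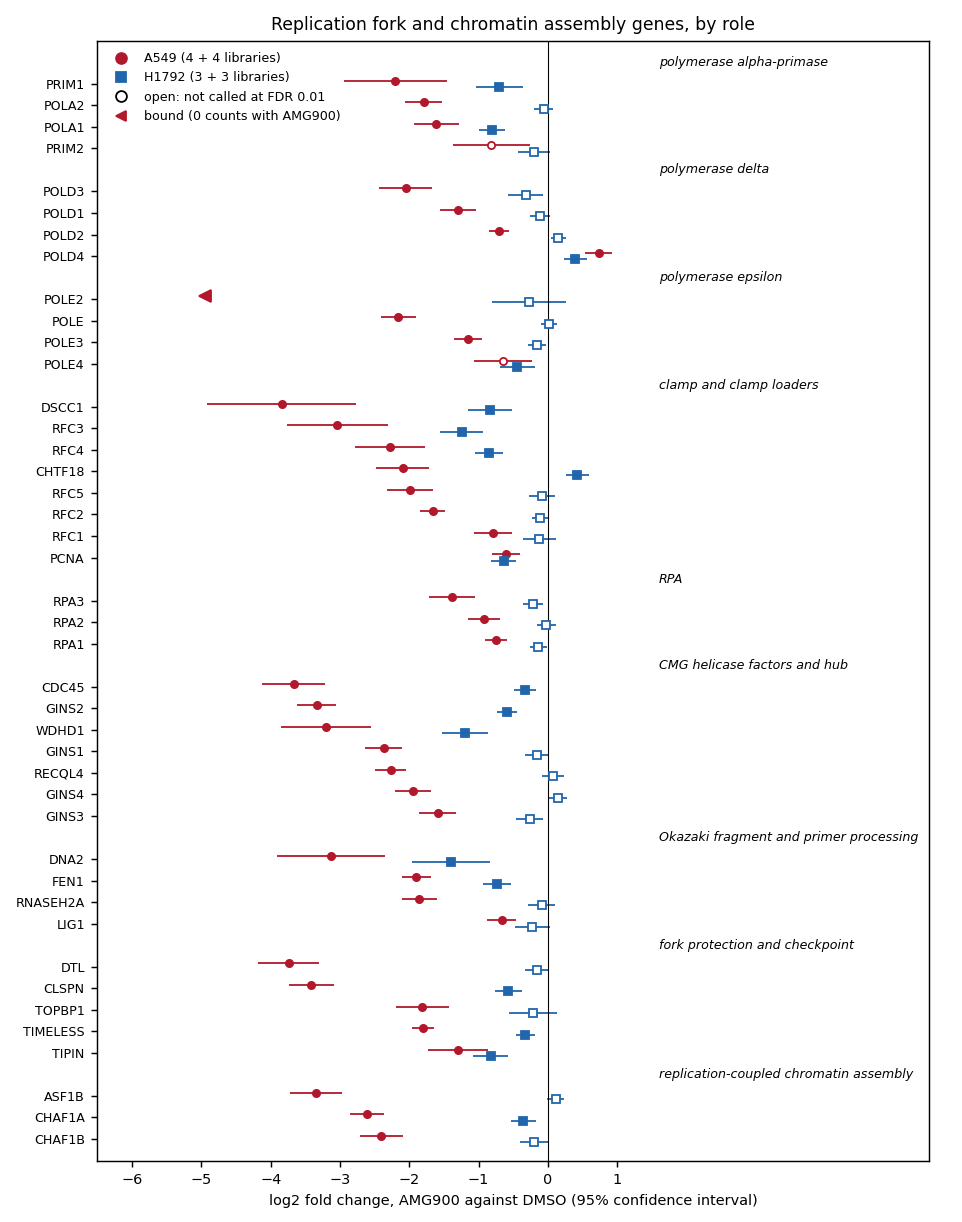
Log2 fold change of the 42 genes with AMG900 against DMSO, grouped by role, in A549 (red circles, 4 + 4 libraries) and H1792 (blue squares, 3 + 3 libraries), with 95% confidence intervals and open symbols where the FDR of 0.01 was not met. A549 values lie far to the left of H1792 values in most groups, POLD4 lies to the right of 0 in both lines, and the arrowhead of POLE2 is a bound from 0 counts.

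**Figure D2:**
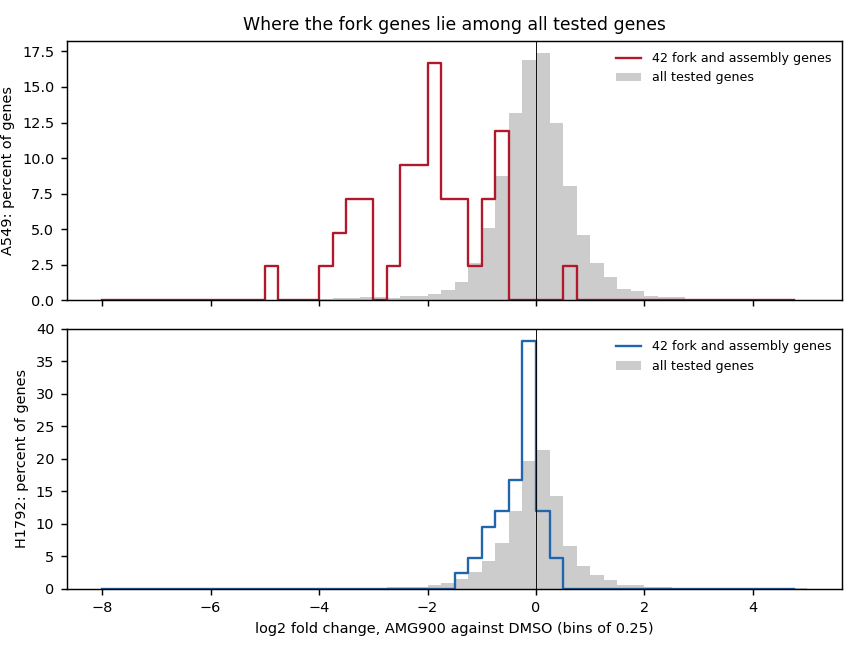
Distribution of log2 fold changes in bins of 0.25, as a percent of genes, for all tested genes (grey) and for the 42 fork and assembly genes (coloured line), in A549 above and H1792 below, with POLE2 in A549 placed at its bound. The A549 outline is centred near -1.92, away from the grey peak at 0, and the H1792 outline is centred near -0.22.

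Polymerase alpha and its primase, which lay down the RNA-DNA primers, fell in 3 of 4 genes in A549 and in 2 of 4 in H1792. POLA1 (chrX:24711990-25015103, plus strand, GRCh37), the catalytic subunit, stood at 30.6, 25.7, 20.6 and 24.2 CPM in the A549 DMSO libraries and at 9.92, 7.37, 8.15 and 7.37 CPM in the AMG900 libraries. In H1792 it stood at 29.0, 35.5 and 34.2 CPM with DMSO and at 18.9, 18.01 and 19.4 CPM with AMG900. The groups did not overlap in either line. The log2 fold change was -1.61 (SE 0.15, edgeR adjusted p = 8.56e-07) in A549 and -0.81 (SE 0.09, edgeR adjusted p = 4.32e-05) in H1792. PRIM1, the catalytic primase subunit, fell from 4.79 ± 0.546 to 1.11 ± 0.725 CPM (SD, n = 4) in A549 and from 4.31 ± 0.345 to 2.63 ± 0.417 CPM (SD, n = 3) in H1792, and the H1792 call was lost without AMG900 replicate 2 or 3 of that line. POLA2, the regulatory subunit, fell to 29.0% of its DMSO level in A549 and was at 95.8% in H1792, where the libraries overlapped. PRIM2, the large primase subunit, had a log2 fold change of -0.82 in A549 that missed the threshold (edgeR adjusted p = 0.0187) and met it (adjusted p from edgeR, 0.00228) only when DMSO replicate 1 was left out, among the single libraries left out. PRIM2 has a near-identical pseudogene copy, so its counts are uncertain.

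The subunits of polymerase delta, the lagging-strand enzyme, went in different directions. POLD1, the catalytic subunit, fell to 40.4% of the DMSO level in A549, POLD2 to 61.2% and POLD3 to 24.6%, while none of the 3 passed in H1792, where they stood at 92.5%, 111% and 79.9%. POLD4 (chr11:67118243-67124443, minus strand, GRCh37) stood at 167, 124, 135 and 136 CPM in the A549 DMSO libraries and at 223, 232, 213 and 258 CPM with AMG900. The H1792 libraries were at 268, 215 and 236 CPM with DMSO and at 322, 316 and 306 CPM with AMG900. All AMG900 libraries lay above all DMSO libraries in both lines. The log2 fold change was 0.73 (SE 0.09, edgeR adjusted p = 1.62e-05) in A549 and 0.39 (SE 0.07, edgeR adjusted p = 0.00146) in H1792, and the second call was lost without AMG900 replicate 1 or DMSO replicate 3. After correction for the GC content of transcripts POLD4 was still called higher in A549 and was at 0.11 (edgeR adjusted p = 0.0564) in H1792.

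Polymerase epsilon, the leading-strand enzyme, held the gene with the lowest AMG900 level of all 42. POLE2 (chr14:50110273-50155140, minus strand, GRCh37), its second subunit, stood at 1.88, 1.55, 1.72 and 1.13 CPM in the A549 DMSO libraries and at 0 counts in all 4 AMG900 libraries. Against a floor of 3 counts over the AMG900 group, which is 0.051 CPM, it was at least 30.8-fold lower. H1792 libraries held 1.13, 1.35 and 1.62 CPM with DMSO and at 0.939, 1.32 and 1.14 CPM with AMG900, and the groups overlapped. POLE2 passed the filter on low counts in A549 through its DMSO libraries, and with it DSCC1, DNA2 and RFC3 had a library under 10 counts in that line. POLE, the catalytic subunit, fell to 22.4% of its DMSO level in A549 (log2 fold change -2.16, SE 0.12) and in H1792 stood at 72.0 ± 0.166 CPM in the DMSO group and at 72.5 ± 0.802 CPM in the AMG900 group (SD, n = 3). POLE3, a histone-fold subunit, fell to 45.2% in A549 and was at 89.6% in H1792, where it did not pass.

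POLE4, the other histone-fold subunit of polymerase epsilon, stood at 69.3, 36.1, 38.3 and 30.4 CPM with DMSO and at 24.6, 25.8, 26.9 and 29.8 CPM with AMG900 in A549. DMSO replicate 1 was the high value, the threshold was missed with all 8 libraries (log2 fold change -0.65, edgeR adjusted p = 0.0125), and it was met without DMSO replicate 1 or without DMSO replicate 4. In H1792 POLE4 stood at 28.3, 20.7 and 25.3 CPM with DMSO and at 16.6, 18.2 and 20.1 CPM with AMG900. The groups did not overlap, and the call (log2 fold change -0.44, edgeR adjusted p = 0.00934) was lost when any of the 3 AMG900 libraries or DMSO replicate 3 was left out.

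All 8 genes of the clamp and its loaders fell in A549, and 4 of them fell in H1792. PCNA (chr20:5095599-5107272, minus strand, GRCh37), the clamp itself, stood at 117, 90.7, 95.3 and 100 CPM with DMSO and at 64.9, 59.5, 72.7 and 66.7 CPM with AMG900 in A549. For H1792 the values were 18.3, 19.8 and 19.1 CPM with DMSO and at 11.9, 13.2 and 11.6 CPM with AMG900. The AMG900 level was thus 65.3% of the DMSO level in A549 and 64.2% in H1792, with log2 fold changes of -0.61 (SE 0.09) and -0.64 (SE 0.08). PCNA has processed pseudogenes and an antisense gene, and how reads shared with them were counted is not stated. RefSeq also lists pseudogenes or antisense genes for POLD2, POLE4, RFC3, RFC5, RPA2, RPA3, FEN1, TIPIN, LIG1 and CLSPN, so small differences in their counts are uncertain.

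RFC3 and RFC4, small subunits shared by the loaders, were among the 5 called genes of the 42 with the largest change in H1792. RFC3 stood at 3.53, 4.19, 4.78 and 4.39 CPM with DMSO and at 0.472, 0.842, 0.486 and 0.259 CPM with AMG900 in A549. In H1792 it went from 4.37, 5.05 and 4.67 CPM to 1.83, 2.02 and 2.11 CPM. Neither line showed overlap, and the log2 fold changes were -3.04 (SE 0.34) and -1.24 (SE 0.14). RFC4 stood at 30.1, 19.8, 14.4 and 13.8 CPM with DMSO and at 4.35, 4.07, 3.56 and 3.62 CPM with AMG900 in A549. The H1792 libraries moved from 18.5, 15.6 and 17.8 CPM to 9.11, 9.74 and 9.84 CPM (log2 fold change -0.86, SE 0.09, edgeR adjusted p = 4.26e-05). The large subunit RFC1 fell to 58.1% in A549 and the other small subunits, RFC2 and RFC5, to 31.5% and 25.5%, while none of these 3 passed in H1792.

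DSCC1 and CHTF18 belong to an alternative loader that works with sister chromatid cohesion, and they parted ways in H1792. DSCC1 stood at 5.17, 4.01, 2.77 and 3.32 CPM with DMSO and at 0.189, 0.0702, 0.593 and 0.0646 CPM with AMG900 in A549, a log2 fold change of -3.84 (SE 0.50). The AMG900 levels are near the floor, and over the fits that tested DSCC1 its A549 value ran from -5.07 to -3.39. H1792 values went from 6.09, 5.21 and 5.24 CPM to 3.60, 3.00 and 2.65 CPM (log2 fold change -0.84, SE 0.15), and after GC correction it no longer passed there (edgeR adjusted p = 0.0373). The groups did not overlap in either line. CHTF18 (chr16:838046-850737, plus strand, GRCh37) stood at 29.6, 21.7, 18.9 and 21.1 CPM with DMSO and at 4.06, 4.56, 6.31 and 5.75 CPM with AMG900 in A549. In H1792 the level was 54.6, 44.4 and 51.1 CPM with DMSO and at 67.3, 67.6 and 66.6 CPM with AMG900. CHTF18 was therefore the 1 fork gene called in opposite directions, with log2 fold changes of -2.10 (SE 0.18) and 0.42 (SE 0.08, edgeR adjusted p = 0.000964). Its transcript has the highest GC content of the 42, 66.9%, and after GC correction the H1792 value was 0.05 (edgeR adjusted p = 0.382).

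The 3 subunits of RPA, the single-strand binding complex, all fell in A549, and none passed in H1792 with all its libraries. Without DMSO replicate 1 of H1792, RPA1 and RPA3 passed there as decreases. RPA1 fell to 59.6%, RPA2 to 52.2% and RPA3 to 37.4% of the DMSO level in A549. In H1792 they stood at 90.8%, 98.4% and 86.3%. RPA3 in A549 DMSO replicate 1 was at 35.5 CPM against 23.4 to 24.8 CPM in the other 3 DMSO libraries. All 4 AMG900 libraries still lay below them.

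All 7 genes of the helicase group fell at least 2-fold in A549, and 3 of them fell in H1792. CDC45 (chr22:19466980-19508135, plus strand, GRCh37), which completes the helicase, stood at 23.5, 32.1, 28.1 and 34.4 CPM with DMSO and at 3.40, 1.33, 2.37 and 2.39 CPM with AMG900 in A549. The values in H1792 were 48.0, 43.9 and 46.9 CPM with DMSO and at 38.8, 37.5 and 34.1 CPM with AMG900. The groups were apart in both lines, by a wide margin in A549 and a narrow one in H1792. The log2 fold change was -3.67 (SE 0.21, edgeR adjusted p = 4.48e-09) in A549 and -0.33 (SE 0.07, edgeR adjusted p = 0.00289) in H1792, where the call was lost without AMG900 replicate 2, AMG900 replicate 3 or DMSO replicate 3.

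GINS2 (chr16:85709804-85723679, minus strand, GRCh37), whose promoter is shown above, stood at 50.3, 49.1, 49.7 and 56.5 CPM with DMSO and at 4.35, 6.25, 5.23 and 4.40 CPM with AMG900 in A549. In H1792 it went from 45.8, 47.2 and 44.1 CPM to 31.9, 28.5 and 30.3 CPM. The groups were apart in both lines, with log2 fold changes of -3.34 (SE 0.13) and -0.59 (SE 0.07). The other GINS subunits fell less in A549: GINS1 was left at 19.3%, GINS4 at 26.2% and GINS3 at 33.0% of the DMSO level, and none of these 3 passed in H1792. WDHD1, a hub that ties polymerase alpha to the helicase, stood at 14.3, 7.56, 6.73 and 7.24 CPM with DMSO and at 1.04, 1.05, 0.701 and 0.970 CPM with AMG900 in A549. The H1792 libraries moved from 4.31, 5.64 and 5.84 CPM to 2.35, 2.22 and 2.27 CPM, a log2 fold change of -1.20 (SE 0.15, edgeR adjusted p = 0.000114). RECQL4, a helicase needed to start replication, fell to 20.7% in A549 and was at 105% in H1792, where the libraries overlapped.

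**Figure D3:**
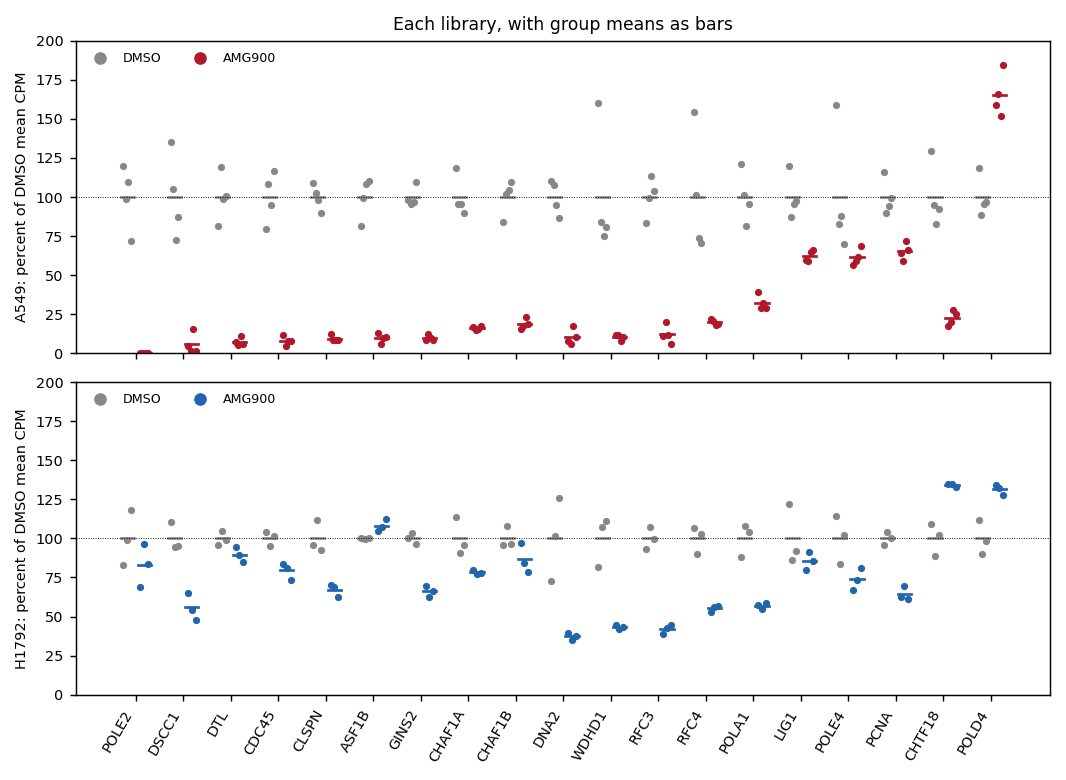
Level of 19 of the genes in each library as a percent of the mean DMSO level of its line, on linear axes from 0, with DMSO libraries in grey, AMG900 libraries in colour and group means as bars, A549 above and H1792 below. In A549 the AMG900 points of POLE2, DSCC1, DTL, CDC45 and CLSPN lie near 0, those of PCNA near 65.3% and those of POLD4 above the line at 100%, and in H1792 no group mean falls below the 37.4% of DNA2.

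Okazaki fragment and primer processing lost transcripts of all 4 genes in A549 and of DNA2 and FEN1 in H1792. DNA2, a nuclease and helicase that trims long flaps, stood at 3.995, 3.92, 3.44 and 3.15 CPM with DMSO and at 0.284, 0.211, 0.647 and 0.388 CPM with AMG900 in A549. H1792 values went from 1.38, 1.91 and 2.37 CPM to 0.746, 0.659 and 0.709 CPM. The groups were apart in both lines, and this was the largest decrease of the 42 in H1792 (log2 fold change -1.40, SE 0.26, edgeR adjusted p = 0.00114). LIG1, the ligase that seals the fragments, stood at 124, 90.5, 98.9 and 101 CPM with DMSO and at 61.9, 61.1, 66.9 and 68.7 CPM with AMG900 in A549 (log2 fold change -0.67, SE 0.10). In H1792 it stood at 121, 85.8 and 91.4 CPM and at 79.1, 90.6 and 85.3 CPM, which overlapped. FEN1, the flap endonuclease, fell to 26.7% of the DMSO level in A549 and by 0.74 on the log2 scale in H1792, and RNASEH2A, the catalytic subunit of the RNase that removes primers, fell to 27.4% in A549 and was at 93.9% in H1792.

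The fork protection and checkpoint genes fell in all 5 cases in A549 and in 3 of 5 in H1792. DTL (chr1:212208895-212280742, plus strand, GRCh37), the receptor through which a PCNA-bound ubiquitin ligase destroys licensing factors, stood at 22.1, 32.5, 26.9 and 27.3 CPM with DMSO and at 1.98, 1.47, 2.97 and 1.62 CPM with AMG900 in A549. The H1792 libraries were at 18.4, 20.1 and 19.0 CPM with DMSO and at 18.1, 17.1 and 16.3 CPM with AMG900. The groups were apart in both lines, but the log2 fold change was -3.74 (SE 0.21, edgeR adjusted p = 2.8e-09) in A549 and -0.16 (SE 0.08, edgeR adjusted p = 0.116) in H1792. CLSPN (chr1:36185819-36235579, minus strand, GRCh37), the checkpoint mediator claspin, stood at 37.1, 34.9, 33.4 and 30.5 CPM with DMSO and at 4.16, 2.95, 2.86 and 2.91 CPM with AMG900 in A549. In H1792 it went from 29.7, 34.6 and 28.7 CPM to 21.9, 21.3 and 19.5 CPM. Neither line showed overlap, and the log2 fold changes were -3.41 (SE 0.15) and -0.57 (SE 0.09). TIMELESS and TIPIN, which travel with the fork as a complex, fell to 28.8% and 39.3% in A549 and to 79.8% and 56.4% in H1792, where the TIMELESS call was lost without AMG900 replicate 1 or 2. TOPBP1, an activator of the checkpoint kinase ATR, fell to 28.7% in A549 and was at 85.7% in H1792, where the libraries overlapped.

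The 3 genes of replication-coupled chromatin assembly all fell in A549, and CHAF1A alone of them passed in H1792. CHAF1A (chr19:4402637-4445015, plus strand, GRCh37), the large subunit of CAF-1, stood at 85.1, 68.8, 68.9 and 64.6 CPM with DMSO and at 12.1, 10.9, 11.1 and 12.7 CPM with AMG900 in A549. H1792 libraries held 91.4, 73.2 and 76.9 CPM with DMSO and at 64.3, 62.2 and 62.5 CPM with AMG900. The groups were apart in both lines, with log2 fold changes of -2.61 (SE 0.11) and -0.36 (SE 0.08, edgeR adjusted p = 0.00397), and the H1792 call was lost when any of the 3 AMG900 libraries was left out.

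CHAF1B (chr21:37757690-37791313, plus strand, GRCh37), the middle subunit of CAF-1, stood at 26.6, 32.1, 32.8 and 34.5 CPM with DMSO and at 4.91, 5.48, 7.39 and 5.95 CPM with AMG900 in A549. For H1792 the values were 22.4, 25.2 and 22.7 CPM with DMSO and at 22.7, 19.8 and 18.5 CPM with AMG900, which overlapped. ASF1B (chr19:14230324-14247425, minus strand, GRCh37), a chaperone of new histones H3 and H4 that hands them to CAF-1, stood at 42.5, 51.8, 56.4 and 57.5 CPM with DMSO and at 6.90, 3.23, 5.07 and 5.62 CPM with AMG900 in A549, a log2 fold change of -3.35 (SE 0.18). In H1792 the level was 54.2, 53.6 and 53.9 CPM with DMSO and at 56.4, 57.8 and 60.6 CPM with AMG900. All 3 H1792 AMG900 libraries were above all 3 DMSO libraries, without passing the test (log2 fold change 0.11, edgeR adjusted p = 0.121). Correction for GC content turned the H1792 value of ASF1B to -0.13 (edgeR adjusted p = 0.0615), and correction for GC content and transcript length to -0.21 (edgeR adjusted p = 0.00907), which passed as a decrease.

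The change with AMG900 was compared between the lines in one edgeR fit over all 14 libraries, as the H1792 log2 fold change minus that of A549. Wherever this difference is given, cell line, medium, sequencing depth and count table cannot be told apart. The difference was above 0 and passed the FDR of 0.01 in 34 of the 42 genes, against 5.37% of 14769 tested genes. With at least 10 counts required in every library it did so in 31 of 38, against 6.72%. Below 0, 9.17% of tested genes passed and 0 of the fork genes did by edgeR or DESeq2, with 1 (POLD4) below 0 at an unadjusted p under 0.05. The value was positive in 40 of the 42, with a median of 1.59, against -0.10 over all tested genes. The groups whose members all passed were RPA, the helicase group and chromatin assembly. The largest difference in the fit was for POLE2, where the A549 AMG900 libraries hold no counts and the fitted value has no fixed size, followed by DTL (3.51, SE 0.23, edgeR adjusted p = 8.07e-10) and ASF1B (3.40, SE 0.20, edgeR adjusted p = 1.31e-10). The 8 genes that did not pass were PRIM2, POLD4, POLE4, PCNA, RFC1, LIG1, DNA2 and TIPIN. The smallest differences were those of PCNA (-0.11, 95% confidence interval -0.38 to 0.16), POLE4 (0.12, -0.43 to 0.67) and LIG1 (0.36, 0.03 to 0.69). For DNA2 the difference was 1.66 (0.72 to 2.60) with an edgeR adjusted p of 0.0103, and for POLD4 it was -0.42 (-0.70 to -0.14) with an edgeR adjusted p of 0.0271. Without A549 DMSO replicate 1, 35 genes passed above 0, against 7.68% of tested genes, and 1, POLD4, below 0, against 12.9%. The POLA1 and PRIM1 differences lost their call when any of 9 and of 12 single libraries, respectively, was left out.

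Untreated levels were compared in the same fit, as H1792 DMSO minus A549 DMSO. Here 13 of the 42 genes were higher in H1792, against 34.2% of tested genes, 11 were lower, against 31.9%, and 18 did not pass. The number called in either direction was 24, against 66.1% of tested genes. It was 30 with DESeq2, against 68.9%, and 29 with total count scaling, against 66.1%, so no difference from the share of all genes is read from it. Per kb of transcript, POLD2 was the most abundant in both lines (140 CPM per kb in A549 and 198 in H1792) and DNA2 the least (0.811 and 0.452). PCNA was the gene furthest apart, at 75.6 CPM per kb in A549 and 15.3 in H1792 (log2 difference -2.30, SE 0.10), followed by TIMELESS (25.5 and 6.47, log2 difference -1.98, SE 0.07), CHTF18 (7.04 and 16.6, log2 difference 1.28, SE 0.13) and POLD1 (33.3 and 78.2, log2 difference 1.24, SE 0.11). The 3 RPA subunits were all higher in H1792, and GINS1, GINS3 and GINS4 were lower. CDC45 was also higher in H1792 (log2 difference 0.72, SE 0.13), whereas GINS2, CLSPN, POLE2, CHAF1A and ASF1B did not pass, with log2 differences from -0.08 to 0.28. Cell line, medium, sequencing depth and count table cannot be told apart in this comparison.

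**Figure D4:**
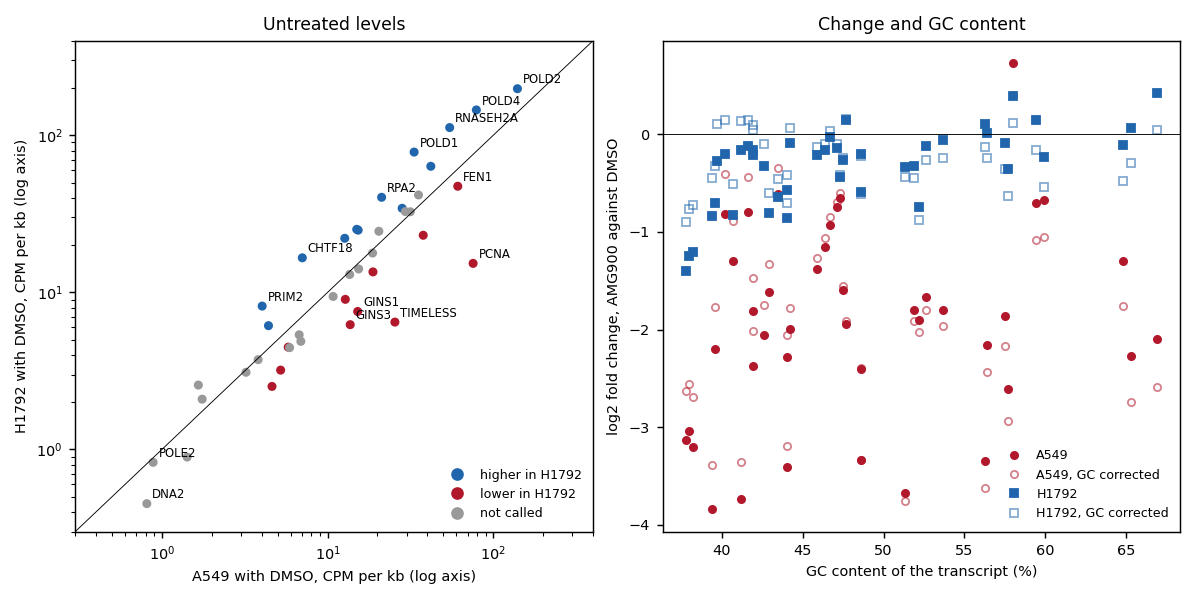
Left, untreated level of each gene in A549 (x) and H1792 (y) in CPM per kb on log axes, coloured by the test between the lines, with PCNA and TIMELESS well below the diagonal. Right, log2 fold change with AMG900 against the GC content of the transcript for both lines, as measured (filled) and after GC correction (open), without POLE2 in A549, with the A549 values mostly below -0.61 and the H1792 values rising with GC content.

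The H1792 changes varied with the GC content of the transcripts, which ran from 37.8% to 66.9% over the 42 genes. Spearman's rho between log2 fold change and GC content was 0.627 over the 42 genes in H1792 and 0.274 in A549, against 0.481 and 0.499 over all tested genes, each point being a gene measured in the same libraries. After a correction for GC content in each library, the number of fork genes that fell was again 39 in A549, against 19.2% of tested genes, and 21 in H1792, against 23.5%. In H1792, 13 of the 16 calls were kept, while PRIM1, POLE4 and DSCC1 (GC content 39.4% to 47.3%) were lost and POLA2, POLD1, POLD2, POLE, RFC2, RECQL4, LIG1 and RNASEH2A (52.6% to 65.3%) were gained. Across all the alternative fits with the same threshold, 39 of the 40 A549 calls held in each fit that tested the gene, with RFC1 the exception. In H1792 9 of 18 held, namely POLA1, PCNA, RFC3, RFC4, GINS2, WDHD1, FEN1, TIPIN and CLSPN. Of the differences between the lines, 32 of 34 held, with POLA1 and PRIM1 the exceptions.

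A further 20 genes of the fork were counted as a list of their own. In A549 11 of the 19 tested fell, against 17.8% of all tested genes, and 8 did not pass. In H1792 7 of 20 fell, against 18.8%, and 13 did not pass. Their median change on the log2 scale was -1.58 in A549, against -0.01 over all tested genes, and -0.23 in H1792, against 0.01. ESCO2, an acetyltransferase of cohesin, and MCM10, which helps to activate the helicase, had the largest values in A549 at -4.42 and -4.33, and both fell in H1792 as well, by 1.27 and 0.65 on the log2 scale. The smallest were those of the annealing helicase SMARCAL1 at 0.18 and the ATR activator ETAA1 at -0.21, neither of which passed. The difference between the lines passed above 0 in 7 of the 20, against 5.37% of all tested genes.

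Of 12 other histone chaperones and deposition factors, 6 fell in A549, against 17.8% of all tested genes, and 5 in H1792, against 18.8%, and the others did not pass. Their median log2 fold change was -0.43 in A549 and -0.23 in H1792, against -0.01 and 0.01 over all tested genes. HAT1, which acetylates new histone H4, fell by 1.90 in A549 and 1.28 in H1792 on the log2 scale, and NASP, a chaperone of soluble histones, fell by 1.19 in A549 and was at -0.11 in H1792. CABIN1 and UBN1, which work with the replication-independent chaperone HIRA, were at 0.03 and -0.26 in A549 and did not pass. HIRA itself, named after its value was seen, was at -0.67 in A549 and -0.36 in H1792. The difference between the lines passed above 0 in 2 of the 12, against 5.37% of all tested genes. These were NASP and SSRP1, the latter named after its value was seen.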

How the data were processed

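Total RNA for 14 libraries of A549 and H1792 cells was extracted by the RNeasy kit and read on a NextSeq 500 instrument. Per the labels, the submitters' processing notes name STAR, HTSeq, hg19 and GRCh37, and the annotation, versions, strand setting and counting options are not given in the sources used here. The authors deposited whole-number read counts per gene symbol, without normalization, in 1 table per line. In H1792, 28 entries named by dates, 0.101% to 0.117% of a library's counts, were left out.

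With R 4.3.3 and edgeR 4.0.16, genes were kept by filterByExpr and scaled by TMM, and the AMG900 effect in either line was tested by the quasi-likelihood test, with Benjamini-Hochberg adjustment over all tested genes and an FDR of 0.01. The difference between lines and the untreated levels came from 1 fit over all 14 libraries. DESeq2 1.42.0, other scalings, filters and thresholds, a replicate block, GC and length corrections (splines with 5 degrees of freedom per library) and each library left out were alternatives. Nothing says how separate the cultures were, so p-values measure the spread between these libraries only, which may be technical. The biological coefficient of variation was 12.8% in A549, 9.60% in H1792 and 11.3% over both, and counting error limits genes with few counts. No 2 replicate libraries were alike within sampling noise. The steps were also run on simulated data with the same spread for every gene, so that run did not cover spread that differs between genes. Gene positions, transcript length and GC content came from GENCODE (GRCh37) by symbol and the promoters from RefSeq (GRCh38.p14).

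The 42 members and the other lists were chosen with earlier results of these data known. Values per library are given for the 5 genes with the largest change among those called in each line, the 3 largest and 3 smallest differences between lines, every gene that rose, and 11 genes chosen to represent the roles; of the other lists, the 2 largest and 2 smallest A549 changes are named.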

Additional observations from a re-analysis of the deposited data

Results flagged for a closer look

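In 34 genes the change with AMG900 differed between the lines by the interaction test at an FDR of 0.01, and the log2 difference, H1792 minus A549, was positive in each. In polymerase alpha and primase it was 0.72 for POLA1, 1.66 for POLA2 and 1.45 for PRIM1. In polymerase delta it was 1.10 for POLD1, 0.78 for POLD2 and 1.66 for POLD3. In polymerase epsilon it was 2.10 for POLE, 8.25 for POLE2 and 0.92 for POLE3. In the clamp loaders it was 1.47 for RFC2, 1.75 for RFC3, 1.33 for RFC4, 1.83 for RFC5, 2.92 for DSCC1 and 2.42 for CHTF18. In RPA it was 0.53 for RPA1, 0.82 for RPA2 and 1.08 for RPA3. In the helicase group it was 2.13 for GINS1, 2.67 for GINS2, 1.25 for GINS3, 2.02 for GINS4, 3.28 for CDC45, 1.91 for WDHD1 and 2.26 for RECQL4. In Okazaki fragment and primer processing it was 1.08 for FEN1 and 1.69 for RNASEH2A. In fork protection and checkpoint it was 1.40 for TIMELESS, 2.77 for CLSPN, 1.52 for TOPBP1 and 3.51 for DTL. In chromatin assembly it was 2.18 for CHAF1A, 2.12 for CHAF1B and 3.40 for ASF1B. The POLE2 value is a fitted one against libraries with 0 counts and is no measure of size. The DSCC1 value ran from 2.59 to 4.22 over the fits that tested it.

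In 5 of 83 groups of 4 A549 libraries, 1 library lay far from the other 3 by Dixon's test, and chance alone gives about 1 in 20. The DMSO replicate 1 library was the high one for RPA3 (35.5 CPM against 23.4 to 24.8), WDHD1 (14.3 against 6.73 to 7.56) and FEN1 (150 against 120 to 124). DMSO replicate 4 was high for GINS2 (56.5 against 49.1 to 50.3) and AMG900 replicate 1 for CLSPN (4.16 against 2.86 to 2.95). In each of these 5 genes the AMG900 libraries still lay below the DMSO libraries.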

How the results depend on the processing

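The A549 count of 39 genes that fell, the H1792 count of 16 and the 34 differences above 0 stayed within 1.5 times under every alternative, except that a change of at least 2-fold left 3 that fell in H1792. That threshold left 0 that rose in A549, 0 that rose in H1792 and 7 untreated differences (3 higher and 4 lower in H1792), by its own construction. DESeq2 gave 41, 17 and 36, against 20.1%, 21.6% and 9.59% of tested genes. With a replicate block 39 fell and 1 rose in A549, against 15.1% and 14.6% of tested genes. In H1792 these were 16 and 2, against 17.4% and 14.5%, and 33 differences were above 0, against 4.09%. Replicate numbers did not pair the libraries (correlations of deviations from -0.0604 to 0.0425). The median difference between lines was 1.668 with DESeq2, 1.669 with its size factors, 1.675 with total count scaling, 1.456 with at least 10 counts in every library, 1.511 with GC correction, 1.503 with GC and length correction and 1.465 to 1.644 with a library left out. The A549 median was -1.998 with total count scaling and -1.802 with at least 10 counts, where 4 genes dropped out. The H1792 median was -0.283 with total count scaling, -0.253 with GC correction, -0.273 with GC and length correction and -0.271 to -0.188 with a library left out. Genes lower untreated in H1792 numbered 17 with total count scaling, against 35.0% of tested genes. A difference below 0, POLD4, passed in 1 case each at an FDR of 0.05, with GC correction, with GC and length correction and in 0 to 1 with a library left out. Genes that rose in H1792 numbered 0 with GC correction, 1 with GC and length correction and 1 to 3 with a library left out, and genes that fell there 11 to 22 with a library left out.

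Directions turned only for small values. In H1792 POLE was at -0.055 with total count scaling and -0.001 with no filter. With GC correction the H1792 values were 0.151 for PRIM2, -0.164 for POLD2, -0.239 for POLE, 0.108 for POLE2, 0.149 for RFC1, 0.062 for RFC5, 0.031 for RPA2, 0.094 for GINS1, -0.298 for RECQL4, 0.046 for TOPBP1, 0.134 for DTL and -0.134 for ASF1B. With GC and length correction they were 0.04 for PRIM2, -0.242 for POLD2, -0.16 for POLE, 0.207 for RFC1, 0.105 for GINS1, -0.213 for RECQL4, 0.107 for TOPBP1, 0.185 for DTL and -0.212 for ASF1B. Of these turned values, POLD2, POLE and RECQL4 passed as decreases under both corrections, and ASF1B under the second. With a library left out, the H1792 values ran from -0.014 to 0.02 for POLE, -0.182 to 0.005 for RNASEH2A, -0.093 to 0.01 for RPA2 and -0.019 to 0.115 for RECQL4, and the POLE4 difference from -0.133 to 0.265. The cause was not tested. Depth limits POLE2, DSCC1, DNA2 and RFC3 in A549, which had libraries under 10 counts.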
